A study of Mus musculus with 11 samples.

Results

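The 9 genes of the Runx and Ikaros families of transcription factors were followed over all 11 libraries: Runx1, Runx2, Runx3, their partner Cbfb, and Ikzf1 to Ikzf5. They were found by symbol, as 9 of the 57186 gene entries of the deposited count table. RNA was sequenced in bulk from sorted cells of untreated mice that were 14 days old. Every group, controls included, carried the genotype Cd3giCreRosa26stopZsGreen: Cd3g-driven iCre deletes a stop before the fluorescent protein ZsGreen, so ZsGreen marks cells that have, or once had, active Cre. The groups were group 2 innate lymphoid cells (ILC2) of the lung without ZsGreen (5 libraries), lung ILC2 with ZsGreen (3 libraries), and thymic DN3 cells, double-negative thymocytes at the stage of T cell receptor beta rearrangement (3 libraries). The labels do not say whether libraries came from separate animals or pools, so p-values measure the spread between libraries, which may be technical.

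Runx proteins bind DNA through their Runt domain and form a heterodimer with Cbfb, the non-DNA-binding subunit that stabilises the bound complex. Runx1 is needed for blood stem cells and early thymocytes, Runx3 for CD8 T cells and several innate lymphoid cells, and Runx2 is best known for bone formation. The Ikaros family is a set of zinc finger proteins that bind DNA with their N-terminal fingers and pair with each other through C-terminal fingers: Ikaros (Ikzf1), Helios (Ikzf2), Aiolos (Ikzf3), Eos (Ikzf4) and Pegasus (Ikzf5). They recruit chromatin complexes such as NuRD and help set lymphocyte development, and Ikaros is a known brake on thymocyte growth.

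Libraries held 4495260 to 14424313 counts in ZsGreen-negative ILC2, 5762491 to 17627469 in ZsGreen-positive ILC2 and 5951494 to 7745062 in DN3. Levels are CPM, counts scaled to a common library size, after TMM scaling over the 11 libraries, and 1 count was worth 0.0567 to 0.222 CPM. Among 8 DN3 markers, Rag1 had a mean of 1260 CPM in DN3 and at most 0.516 CPM in any lung library. Il2ra differed far less, at means of 1106 CPM in DN3 and 960 and 817 CPM in ILC2 without and with ZsGreen. Bcl11b averaged 756, 399 and 386 CPM in that order. The 8 markers summed to 5924 to 6161 CPM in DN3. In ILC2 they summed to 1360 to 1497 CPM without and 1178 to 1409 CPM with ZsGreen. Il1rl1, the IL-33 receptor chain of ILC2, had a mean of 3159 CPM without and 2974 CPM with ZsGreen, and 0 counts in DN3. The labels give the DN3 libraries a batch that no lung library has, and the effects of tissue, of cell type and of batch cannot be told apart. The larger lung batch held libraries 1 to 4 without ZsGreen and libraries 1 and 2 with it, and the smaller one held ZsGreen-negative 5 and ZsGreen-positive 3.

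Markers of other cells were summed per library. The 22 lung structural markers (epithelial, endothelial and fibroblast genes) summed to 421 to 1186 CPM in ZsGreen-negative ILC2, 1058 to 2643 CPM in ZsGreen-positive ILC2 and 191 to 226 CPM in DN3, where Sftpa1, Scgb1a1, Pdgfra, Cldn18, Acta2 and Hopx were at 0. In the same order of groups, macrophage and dendritic cell markers reached 59.3 to 163, 116 to 254 and 17.56 to 19.6 CPM (Marco, Cd14 and Xcr1 at 0 in DN3), and B cell markers 18.2 to 22.3, 18.5 to 49.4 and 24.6 to 28.9 CPM, with Pax5 and Ms4a1 at 0 in DN3. Neutrophil, mast cell and basophil markers reached 139 to 241, 91.1 to 136 and 24.3 to 24.9 CPM, with S100a8, S100a9, Mcpt8 and Ms4a2 among those at 0 in DN3. Platelet and erythroid markers reached 14.8 to 18.5, 14.6 to 20.4 and 5.12 to 9.13 CPM. Markers of NK cells, ILC1 and ILC3 reached 30.7 to 35.3, 21.5 to 30.4 and 176 to 199 CPM (Ncr1, Eomes, Klrb1c and Il22 at 0 in DN3), and alpha-beta T cell markers 395 to 445, 381 to 483 and 858 to 950 CPM. In bulk RNA, fewer cells of a type and less RNA per cell cannot be told apart.

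The families used different paralogs in thymic DN3 cells and lung ILC2. DN3 cells held mainly Runx1 among the Runx genes and mainly Ikzf1 among the Ikaros genes, whereas both ILC2 groups held mainly Runx3, and Ikzf3 next to Ikzf1. DN3 minus ZsGreen-negative ILC2 gave 2 members higher (Runx1, Ikzf4), 6 lower (Runx2, Runx3, Cbfb, Ikzf1, Ikzf2, Ikzf3) and 1 not called (Ikzf5) by edgeR's quasi-likelihood test at an adjusted p of 0.05. The same rule called 76.7% of the 15132 genes tested (35.5% higher, 41.2% lower), so 8 of 9 is near that background. Groups did not overlap for 8 members, beside 73.9% of all genes. DN3 minus ZsGreen-positive ILC2 gave 2 higher and 5 lower, with Cbfb and Ikzf5 not called, beside 75.1% of all genes (34.8% higher, 40.3% lower), and groups did not overlap for 8 members, beside 78.1% of all genes. Both contrasts use the same DN3 libraries. The median log2 difference of the 9 members was -0.39 and -0.43 in the 2 contrasts, beside -0.10 and -0.08 over all genes. Between ZsGreen-positive and ZsGreen-negative ILC2, 1 member was higher (Runx2) and 1 lower (Ikzf3), with 7 not called, beside 4.52% of 13771 genes (2.35% higher, 2.18% lower).

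**Figure D1:**
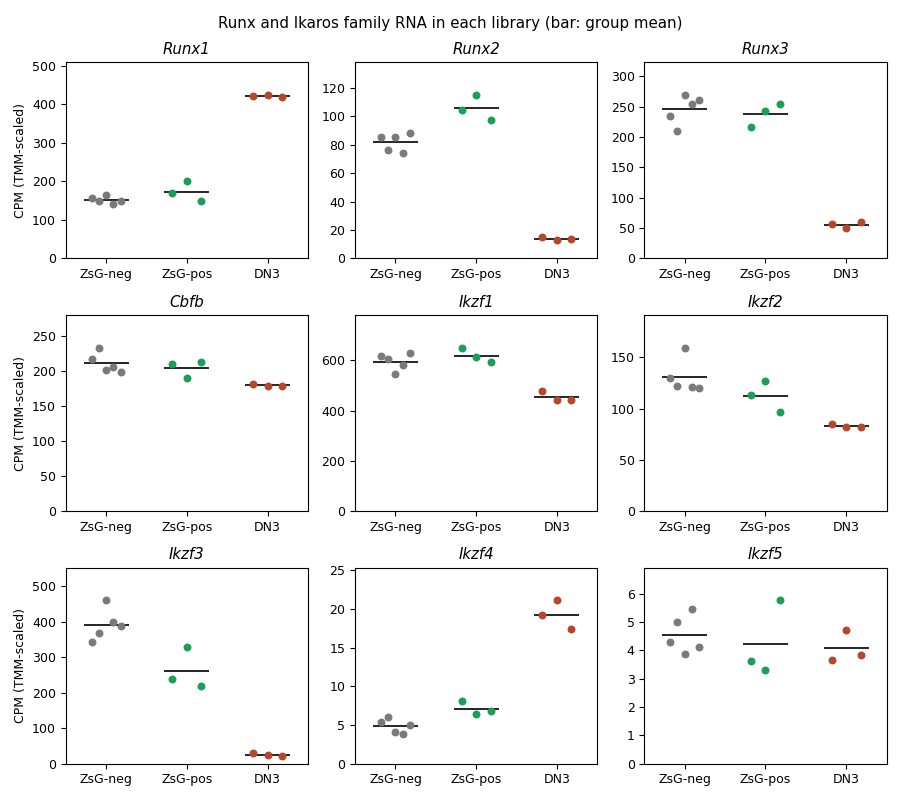
Level of each of the 9 genes in each of the 11 libraries (TMM-scaled CPM, linear axes from 0, 1 panel a gene), by group; points are single libraries and bars group means. ZsG-neg and ZsG-pos are ILC2 without and with ZsGreen. Runx1 and Ikzf4 lie higher in DN3 than in every lung library, Runx2, Runx3 and Ikzf3 lie lower, and Ikzf5 overlaps in all groups.

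Runx1 was 420.5, 424 and 419 CPM in DN3 libraries 1 to 3. It was 158, 148, 163, 141 and 150 CPM in ZsGreen-negative ILC2 libraries 1 to 5, and 169, 200.3 and 149 CPM in ZsGreen-positive ILC2 libraries 1 to 3. The DN3 libraries were all above every lung library, and the lung groups overlapped. On the log2 scale DN3 exceeded ZsGreen-negative ILC2 by 1.47 ± 0.09 (SE), or 2.77-fold, with an adjusted p of 7.17e-13 in edgeR's quasi-likelihood test. DN3 exceeded ZsGreen-positive ILC2 by 1.29 ± 0.10, or 2.45-fold (adjusted p = 1.01e-10). Between the lung groups the difference was 0.20 ± 0.09 in favour of ZsGreen-positive cells and was not called (adjusted p = 0.259).

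Runx3, the main Runx gene of the ILC2, showed the opposite order. Its levels were 235, 210, 269, 254 and 261 CPM in ZsGreen-negative ILC2, 216, 243 and 253 CPM in ZsGreen-positive ILC2, and 55.9, 50.9 and 59.96 CPM in DN3. Every lung library was above every DN3 library. DN3 was lower than ZsGreen-negative ILC2 by a log2 difference of -2.14 ± 0.10, 4.42-fold lower (adjusted p = 1.31e-14), and lower than ZsGreen-positive ILC2 by -2.10 ± 0.11, 4.28-fold lower (adjusted p = 7.08e-14). The lung groups overlapped, with a log2 difference of -0.06 ± 0.09 and a 95% interval of -0.24 to 0.12 (adjusted p = 0.823).

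Runx2 was the scarcest Runx gene in DN3, at 15.0, 12.8 and 13.5 CPM. It was 85.7, 76.4, 85.5, 74.1 and 88.2 CPM in ZsGreen-negative ILC2 and 105, 115 and 97.7 CPM in ZsGreen-positive ILC2. None of the 3 groups overlapped. DN3 was 5.98-fold below ZsGreen-negative ILC2 (log2 difference -2.58 ± 0.11, adjusted p = 1.73e-15) and 7.68-fold below ZsGreen-positive ILC2 (-2.94 ± 0.11, adjusted p = 5.21e-16).

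Cbfb, the shared partner, moved far less than the Runx genes. It averaged 211 ± 14.2 CPM (SD, n = 5) in ZsGreen-negative ILC2, 204 ± 12.0 CPM (n = 3) in ZsGreen-positive ILC2 and 179 ± 1.29 CPM (n = 3) in DN3. DN3 was called lower than ZsGreen-negative ILC2 at a log2 difference of -0.23 ± 0.08 (edgeR adjusted p = 0.0104). Upper-quartile scaling, which moved the median of all genes by 0.105 on the log2 scale in that contrast, ended the Cbfb call (-0.13, adjusted p = 0.128). Against ZsGreen-positive ILC2 the difference was -0.19 ± 0.09 and was not called (adjusted p = 0.0560). The lung groups differed by -0.04 ± 0.08, with a 95% interval of -0.20 to 0.12 (adjusted p = 0.889).

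To compare paralogs with each other, CPM was divided by the length in kilobases of each gene's exons in GENCODE M21, and each member was given as a percentage of its family's summed level per kilobase. These shares are descriptions without a test. Runx3 held 69.1% ± 2.06 (SD, n = 5) of the Runx level in ZsGreen-negative ILC2, 64.3% ± 3.52 (n = 3) in ZsGreen-positive ILC2 and 23.3% ± 1.54 (n = 3) in DN3. Runx1 held 17.9% ± 1.33, 19.5% ± 2.43 and 73.5% ± 1.62, and Runx2 13.1% ± 0.870, 16.2% ± 1.16 and 3.26% ± 0.255, in the same order. The main paralog was therefore Runx3 in both lung ILC2 groups and Runx1 in the thymic DN3 cells. In raw counts, which do not correct for length, the ratio of Runx1 to Runx3 within a library was 0.554 to 0.707 in ZsGreen-negative ILC2, 0.587 to 0.825 in ZsGreen-positive ILC2 and 6.99 to 8.33 in DN3.

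The summed Runx level moved less than its parts. The 3 genes summed to 480 ± 31.6 CPM in ZsGreen-negative ILC2, 516 ± 36.8 CPM in ZsGreen-positive ILC2 and 490.5 ± 2.55 CPM in DN3, so the DN3 libraries (488 to 492 CPM) lay within the ZsGreen-negative range of 434 to 518 CPM. Per kilobase the sums were 71.1 ± 5.40, 73.8 ± 4.57 and 47.7 ± 0.754, since Runx1 has the longest exons of the 3. Set against Cbfb per kilobase, the Runx sum was 0.940 to 1.34 times as high in ZsGreen-negative ILC2, 1.15 to 1.43 times in ZsGreen-positive ILC2 and 0.913 to 0.945 times in DN3. These per-kilobase sums and ratios depend on the lengths used. Runx1 has 12025 exonic bases but 5861 in its longest coding transcript, fewer than the 6463 of Runx2. The sums and ratios were not computed with that length, so their order between groups may depend on it.

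**Figure D2:**
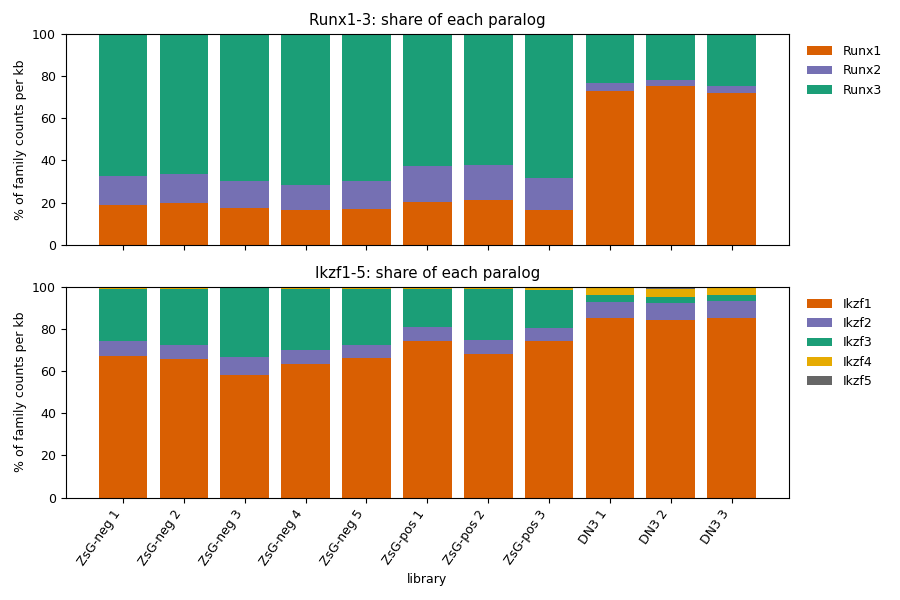
Share of each paralog in its family's summed level per kilobase of exon (percent), for the Runx genes above and the Ikaros genes beneath; each stacked bar is 1 of the 11 libraries and each colour 1 paralog. Runx3 leads in both ILC2 groups and Runx1 in DN3, while the mean Ikzf3 share is 27.8%, 20.01% and 3.15% in ZsGreen-negative ILC2, ZsGreen-positive ILC2 and DN3.

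Because Runx genes are known to start from a distal and a proximal promoter, and the Runx genes moved in opposite directions here, the bases before their RefSeq starts are shown, with copies of the Runx core in capitals where present. The core was searched as TGTGGT and as its reverse complement. They are given 5′ to 3′ on the gene's strand from build GRCm38.p6. Each stops before the first base, if any, that GENCODE M21 places in an exon of the gene.
Runx1 first start, chr16:92826150-92826324, minus strand: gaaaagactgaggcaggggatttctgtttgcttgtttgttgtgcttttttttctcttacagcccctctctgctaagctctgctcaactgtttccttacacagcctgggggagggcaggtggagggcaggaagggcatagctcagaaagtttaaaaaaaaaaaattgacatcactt
Runx1 second start, chr16:92697330-92697579, minus strand: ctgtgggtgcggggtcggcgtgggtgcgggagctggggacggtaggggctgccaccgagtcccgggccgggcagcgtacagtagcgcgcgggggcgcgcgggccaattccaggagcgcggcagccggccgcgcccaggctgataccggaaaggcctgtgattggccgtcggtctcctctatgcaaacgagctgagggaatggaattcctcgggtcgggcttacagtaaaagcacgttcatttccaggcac
Runx2 start, chr17:44814798-44814877, minus strand: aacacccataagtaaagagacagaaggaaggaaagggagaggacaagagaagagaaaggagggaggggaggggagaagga
Runx3 first start, chr4:135120395-135120644, plus strand: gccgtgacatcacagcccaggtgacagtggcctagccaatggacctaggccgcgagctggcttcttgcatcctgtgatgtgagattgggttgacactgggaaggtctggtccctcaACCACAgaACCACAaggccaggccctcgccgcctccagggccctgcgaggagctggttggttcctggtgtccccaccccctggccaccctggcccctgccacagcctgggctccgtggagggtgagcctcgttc
Runx3 second start, chr4:135152295-135152495, plus strand: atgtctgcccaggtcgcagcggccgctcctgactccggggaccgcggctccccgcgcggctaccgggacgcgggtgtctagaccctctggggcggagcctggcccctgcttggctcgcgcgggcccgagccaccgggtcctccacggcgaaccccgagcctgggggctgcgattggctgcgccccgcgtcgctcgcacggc
Full windows of 250 bases were searched on both strands at 9 starts of 6 members (Runx1, Runx2, Runx3, Cbfb, Ikzf1, Ikzf5). The core stood in 2 of these windows: 2 copies before the first start of Runx3, and 1 copy before Runx2 among the 170 bases not shown, which begin in an exon. The bases just after the first Runx3 start and the second Runx1 start matched no GENCODE M21 transcript of that gene. Of all 32851 RefSeq windows of that length, 14.0% held the core. Both Runx3 copies read ACCACA on the gene's strand. The Ikaros core TGGGAA, searched on both strands, stood in 1 of the 9 windows, the first of Runx3, and in 21.6% of all windows; it shares no letters with a Runx core there. The counts are per gene and do not say which start was used.

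Ikzf1, which encodes Ikaros, was the most abundant member per kilobase in all 3 groups. It averaged 595 ± 34.3 CPM (SD, n = 5) in ZsGreen-negative ILC2, 618.5 ± 28.8 CPM (n = 3) in ZsGreen-positive ILC2 and 454 ± 19.3 CPM (n = 3) in DN3. The DN3 libraries, at 442 to 476 CPM, were all below the lung libraries, which started at 544 CPM. DN3 was lower by log2 differences of -0.39 ± 0.08 against ZsGreen-negative ILC2 (edgeR adjusted p = 0.000192) and -0.45 ± 0.09 against ZsGreen-positive ILC2 (adjusted p = 0.000138). The lung groups differed by 0.06 ± 0.08, with a 95% interval of -0.11 to 0.22 (adjusted p = 0.825).

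Ikzf3, which encodes Aiolos, had the widest range of the family. It stood at 343, 367, 460, 400.1 and 387 CPM in ZsGreen-negative ILC2 libraries 1 to 5. In ZsGreen-positive libraries 1 to 3 it stood at 238, 328 and 219 CPM, and in DN3 at 29.6, 24.6 and 22.6 CPM. The 3 groups did not overlap, although ZsGreen-positive library 2 was close to ZsGreen-negative library 1. DN3 was 15.3-fold below ZsGreen-negative ILC2 (log2 difference -3.94 ± 0.15, adjusted p = 1.61e-14) and 10.2-fold below ZsGreen-positive ILC2 (-3.35 ± 0.16, adjusted p = 3.42e-13).

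Ikzf2, which encodes Helios, was 120 to 159 CPM in ZsGreen-negative ILC2, 97.0 to 127 CPM in ZsGreen-positive ILC2 and 81.8 to 85.3 CPM in DN3. DN3 was lower than either lung group, by -0.65 ± 0.10 (adjusted p = 6.21e-06) and -0.43 ± 0.11 (adjusted p = 0.00159) on the log2 scale. The lung groups overlapped, with a difference of -0.19 ± 0.10 (adjusted p = 0.350).

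Ikzf4, which encodes Eos, was low throughout but ran against its family, being highest in DN3. It stood at 19.2, 21.1 and 17.5 CPM there, from 137 to 197 counts. In ZsGreen-negative ILC2 it stood at 5.33, 6.07, 4.13, 3.80 and 5.00 CPM, from 17 to 68 counts. In ZsGreen-positive ILC2 it stood at 8.09, 6.44 and 6.78 CPM, from 35 to 114 counts. DN3 was 3.93-fold above ZsGreen-negative ILC2 (log2 difference 1.98 ± 0.17, adjusted p = 8.85e-10) and 2.72-fold above ZsGreen-positive ILC2 (1.44 ± 0.19, adjusted p = 5.79e-07). The lung groups did not overlap, yet the difference of 0.54 ± 0.23 was not called (adjusted p = 0.232).

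Ikzf5, which encodes Pegasus, rested on 16 to 97 counts per library and overlapped between all groups, at means of 4.55 ± 0.652, 4.23 ± 1.34 and 4.07 ± 0.566 CPM in ZsGreen-negative ILC2, ZsGreen-positive ILC2 and DN3. Its log2 differences had 95% intervals of -0.66 to 0.35 for DN3 minus ZsGreen-negative ILC2, -0.66 to 0.44 for DN3 minus ZsGreen-positive ILC2 and -0.64 to 0.44 between the lung groups. Its values are uncertain: 4652 of its 5721 exonic bases overlap Pstk on the opposite strand, and whether strand was used in counting is not given in the sources used here. Pstk had 1702 counts over all libraries and Ikzf5 401. Runx1, Runx2, Ikzf2 and Ikzf4 overlap antisense or unnamed genes over 37 to 519 exonic bases, and those genes had 14 to 311 counts.

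Within the Ikaros family, Ikzf1 held 64.2% ± 3.60 of the level per kilobase in ZsGreen-negative ILC2, 72.2% ± 3.68 in ZsGreen-positive ILC2 and 84.9% ± 0.447 in DN3 (SD, n = 5, 3 and 3). Ikzf3 held 27.8% ± 3.00, 20.01% ± 3.46 and 3.15% ± 0.312, and Ikzf2 7.004%, 6.50% and 7.73%. Ikzf4 held 0.506%, 0.799% and 3.48%, so in DN3 it stood beside Ikzf3. Lengths matter to these shares: with the longest coding transcript of each gene in place of all exons, Ikzf1 held 48.5%, 58.5% and 81.0%. Within a library, the ratio of Ikzf3 to Ikzf1 counts was 0.555 to 0.845 in ZsGreen-negative ILC2, 0.366 to 0.535 in ZsGreen-positive ILC2 and 0.0511 to 0.0622 in DN3, so no group overlapped another. The ratio of Ikzf2 to Ikzf1 counts did overlap, at 0.191 to 0.293, 0.163 to 0.207 and 0.179 to 0.185. The 5 genes summed to 1126 ± 31.5, 1004 ± 77.1 and 586 ± 24.7 CPM.

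Across both families the order per kilobase in ZsGreen-negative ILC2 was Ikzf1 (103), Cbfb (60.5), Runx3 (49.1), Ikzf3 (44.7), Runx1 (12.7), Ikzf2 (11.2), Runx2 (9.28), Ikzf4 (0.812) and Ikzf5 (0.795), as CPM per kilobase. Runx3 and Ikzf3, Runx1 and Ikzf2, and Ikzf4 and Ikzf5 were neighbours whose libraries overlapped. In ZsGreen-positive ILC2 the order was Ikzf1 (107), Cbfb (58.5), Runx3 (47.5), Ikzf3 (29.9), Runx1 (14.4), Runx2 (12.0), Ikzf2 (9.68), Ikzf4 (1.18) and Ikzf5 (0.740). Only Runx1 and Runx2 overlapped among neighbours there. In DN3 it was Ikzf1 (78.6), Cbfb (51.5), Runx1 (35.0), Runx3 (11.1), Ikzf2 (7.15), Ikzf4 (3.21), Ikzf3 (2.93), Runx2 (1.56) and Ikzf5 (0.711), and among neighbours only Ikzf4 and Ikzf3 overlapped. Ikzf1 and Cbfb led in all 3 groups, and the order of the others differed between lung ILC2 and thymic DN3 cells.

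**Figure D3:**
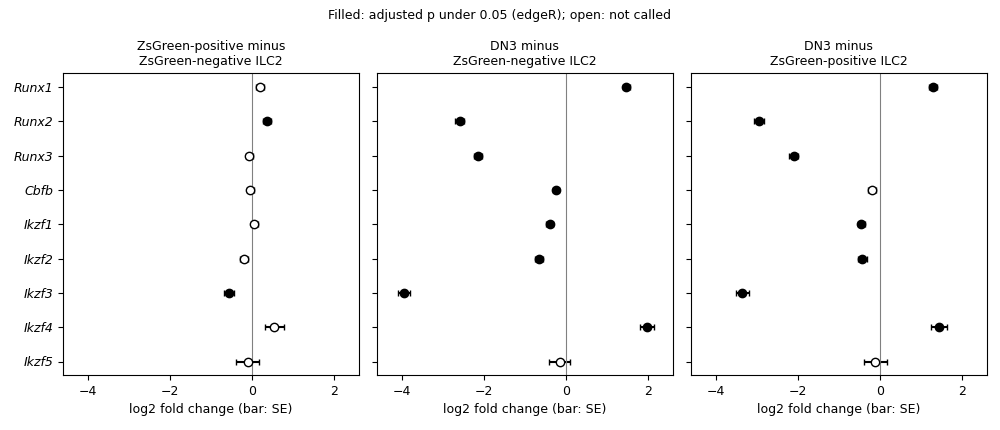
Log2 differences of the 9 genes in the 3 contrasts (edgeR); bars are standard errors and filled markers passed an adjusted p of 0.05. Ikzf3 lies furthest below 0 in both contrasts with DN3 (-3.94 and -3.35), and in the lung contrast only Runx2 and Ikzf3 are filled.

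Within the lung, the ILC2 that carried ZsGreen had less Ikzf3 and more Runx2 than those without it. Ikzf3 was lower by a log2 difference of -0.57 ± 0.12, 1.48-fold lower (edgeR adjusted p = 0.0139), with all 3 ZsGreen-positive libraries below all 5 ZsGreen-negative ones. Runx2 was higher by 0.37 ± 0.09, 1.29-fold (adjusted p = 0.0258), again without overlap. Groups did not overlap for 3 of 9 members (Runx2, Ikzf3 and Ikzf4), beside 10.2% of all genes tested. The median log2 difference of the members was -0.04, beside -0.00 over all genes.

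Both lung differences were small and rested on few libraries. Ikzf3 no longer passed without ZsGreen-negative library 5 (-0.47, edgeR adjusted p = 0.132). Nor did it without library 1 of the ZsGreen-positive cells (-0.47, adjusted p = 0.0866) or without their library 3 (-0.47, adjusted p = 0.105). The Runx2 call was lost without ZsGreen-negative library 2 (0.34, adjusted p = 0.0531), and without ZsGreen-positive library 1 (0.37, adjusted p = 0.0844) or library 2 of the same group (0.28, adjusted p = 0.186). Within the larger lung batch Ikzf3 differed by -0.47 ± 0.14 (adjusted p = 0.108) and Runx2 by 0.45 ± 0.10 (adjusted p = 0.0203). The other batch has 1 library a group and no test: Ikzf3 was 219 CPM with ZsGreen against 387 without, and Runx2 97.7 against 88.2 CPM.

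Lung structural markers differed between the same groups. Their score, the mean log2(CPM + 1) of 22 markers, was 2.99 to 4.17 in ZsGreen-negative ILC2 and 4.04 to 4.84 in ZsGreen-positive ILC2. Of 19 such markers tested, 3 were called higher in ZsGreen-positive cells and 0 lower, with a median log2 difference of 1.16. Over all genes 2.35% were called higher and 2.18% lower, with a median of -0.00. The median was 1.17 for B cell markers (1 of 5 higher, 0 lower). It was 0.54 for macrophage and dendritic cell markers (0 of 8 called). Of 2 neutrophil, mast cell and basophil markers, 1 was called lower. The medians were -0.24 for alpha-beta T cell markers (0 of 6 called) and -0.12 for ILC2 markers (2 of 9 higher, 1 lower). With this score as a term in the edgeR fit, Ikzf3 differed by -0.61 ± 0.19 (adjusted p = 0.272) and Runx2 by 0.33 ± 0.15 (adjusted p = 0.656), and neither was called. The fit with the score called 50 genes in all, where the fit without the score called 623.

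**Figure D4:**
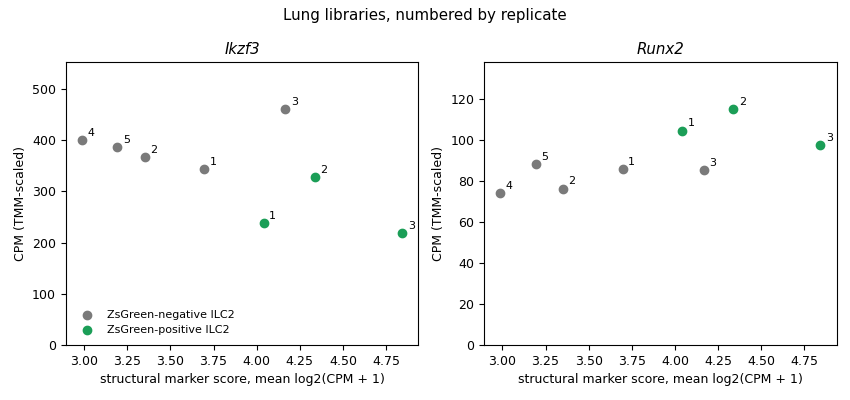
Ikzf3 and Runx2 in the 8 lung libraries (CPM) against the lung structural marker score (mean log2(CPM + 1) of 22 markers), coloured by group; each point is 1 library, numbered by replicate. The score is 2.99 to 4.17 in ZsGreen-negative and 4.04 to 4.84 in ZsGreen-positive libraries, and no correlation is drawn.

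Genes that work with the Runx proteins were read against the share of all genes called. Of 19 Runx cofactors tested (20 listed), 5 were higher and 12 lower in DN3 than in ZsGreen-negative ILC2, with a median log2 difference of -0.92 beside -0.10 over all genes. Over all genes 35.5% were called higher and 41.2% lower, 76.7% in all. Against ZsGreen-positive ILC2, 4 were higher and 11 lower (median -1.04 beside -0.08), beside 34.8% and 40.3% of all genes. Wwtr1 and Runx1t1, at 0 counts in DN3, and Tle2 (0.330 CPM) and Yap1 (0.593 CPM) passed the filter on low counts through the lung libraries. Their direction was fixed by the filter, so these counts and medians support nothing. Cbfa2t3, an ETO-family corepressor, was 143 ± 5.46 CPM in DN3, 2.07 ± 1.05 CPM in ZsGreen-negative ILC2 and 6.57 ± 2.29 CPM in ZsGreen-positive ILC2. The arginine methyltransferase Prmt1 was 234, 85.0 and 84.1 CPM, and the histone methyltransferase Suv39h1 83.8, 22.6 and 19.9 CPM, in that order. The adjusted p of these 3 genes was at most 1.25e-11 in either contrast. Wwtr1, the Hippo pathway coactivator TAZ, had 0 counts in DN3, which allows up to 0.120 CPM, and 9.18 CPM in ILC2 without and 23.8 CPM in ILC2 with ZsGreen. Within the lung, 3 of 19 were higher in ZsGreen-positive cells, beside 2.35% of all genes, and 0 lower (edgeR, as also with DESeq2 and limma voom; 1 lower at an unadjusted p under 0.05). These were Wwtr1 (log2 difference 1.43 ± 0.19, adjusted p = 0.000158), Cbfa2t3 (1.67 ± 0.34, adjusted p = 0.00712) and Runx1t1, another ETO-family corepressor (5.37 to 10.4 CPM, 0.93 ± 0.22, adjusted p = 0.0210). The Cbfa2t3 call was lost on leaving out ZsGreen-negative 5 or ZsGreen-positive 3 (adjusted p up to 0.131), and the Runx1t1 call on leaving out ZsGreen-positive 1 or 2 (adjusted p up to 0.147). With the structural score as a term none of these 3 was called, at 1.02, 0.66 and 1.14.

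The chromatin partners of Ikaros were called about as often as other genes. Of 19 genes of NuRD, Sin3, CtBP and related complexes, 12 were higher and 3 lower than in ZsGreen-negative ILC2 (median 0.42 beside -0.10 over all genes), and 12 and 3 against ZsGreen-positive ILC2 (median 0.34 beside -0.08). Over all genes 76.7% and 75.1% were called in these contrasts, with 35.5% and 34.8% of all genes called higher. The ATPase Smarca4 was 777 CPM in DN3, 268 in ZsGreen-negative ILC2 and 272 in ZsGreen-positive ILC2, and the deacetylase Hdac2 180, 82.3 and 81.0 CPM. The NuRD helicase Chd3 ran the other way, at 404 CPM in DN3 against 872 and 795 CPM. The corepressor Ctbp2 was 0.804 CPM in DN3, 5.20 in ZsGreen-negative ILC2 and 9.07 in ZsGreen-positive ILC2. It passed the filter on low counts through the lung libraries, which fixed its direction in the DN3 contrasts. Ctbp2 was the only list member called in the lung (0.83 ± 0.21, adjusted p = 0.0298), and leaving out any of 6 single libraries ended that call (adjusted p up to 0.164), as did the structural score as a term (0.61, adjusted p = 0.821). Rbbp4 at -0.22 ± 0.09 (adjusted p = 0.219) and Mta1 at -0.12 ± 0.08 (adjusted p = 0.541) followed it by p and were not called.

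Cereblon is the substrate receptor of the ubiquitin ligase through which thalidomide analogues degrade Ikaros and Aiolos. Of its 5 ligase genes, 4 were higher in DN3 in both contrasts and 0 lower, with medians of 0.50 and 0.51 beside -0.10 and -0.08 over all genes (no gene was lower at an unadjusted p under 0.05 or with DESeq2 or limma voom). In either direction, 4 of 5 is near the 76.7% and 75.1% of all genes called. By direction, 35.5% and 34.8% of all genes were called higher and 41.2% and 40.3% lower. With 5 genes, the shared direction was not tested against these shares. The adaptor Ddb1 was 571 CPM in DN3 against 323 and 306 CPM, the scaffold Cul4b 72.3 against 37.2 and 33.4 CPM, and the RING protein Rbx1 62.8 against 44.6 and 43.7 CPM. Between the lung groups 0 of 5 were called with edgeR, DESeq2 or limma voom, and 0 had an unadjusted p under 0.05. Their smallest adjusted p was 0.543, for Cul4b.

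Of 17 tested genes described as Runx targets in lymphocytes (21 listed), 5 were higher and 10 lower in DN3 than in either ILC2 group, beside 76.7% and 75.1% of all genes called in the 2 contrasts. Of the 5, Cd4, Cd8a and Cd8b1 passed the filter on low counts only through DN3, so their direction was fixed by the filter, and the count supports nothing. Likewise, genes at or near 0 in DN3, such as Zbtb7b and Csf2, passed through the lung libraries. The T cell factor gene Tcf7 was 1873 CPM in DN3 against 33.1 and 42.3 CPM. Zbtb7b, which encodes the CD4 lineage factor ThPOK, was 0.0825 CPM in DN3 against 111 and 106 CPM. The cytokine gene Csf2 had 0 counts in DN3 and 703 and 849 CPM in the ILC2 groups. The list holds ILC2 markers (Gata3, Il7r), so it is also a list of cell identity. It also holds Bcl11b, counted here among the DN3 markers, though it stood at 756 CPM in DN3 against 399 and 386 CPM. Within the lung 2 of 14 were higher in ZsGreen-positive cells, beside 2.35% of all genes, and 0 lower (0 lower with DESeq2 and limma voom too; 2 lower at an unadjusted p under 0.05). Il4, a type 2 cytokine gene, was 13.0 CPM without and 29.4 CPM with ZsGreen (1.25 ± 0.15, adjusted p = 5.57e-05), and with the structural score as a term it differed by 1.18 (adjusted p = 0.0480). The chemokine receptor gene Ccr9 was 30.1 and 49.4 CPM (0.74 ± 0.18, adjusted p = 0.0353), a call that leaving out any of 4 single libraries ended, as did the score as a term (0.78, adjusted p = 0.471). Csf2 was not called in the lung (0.28 ± 0.09, adjusted p = 0.0769).

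Of 13 tested genes described as Ikaros family targets (18 listed), 8 were higher and 5 lower in DN3 than in either ILC2 group, beside the same shares of all genes. Of the 8, Rag1, Rag2, Ptcra and Dntt passed the filter only through DN3, which fixed their direction, and the count supports nothing. The 9 genes also tested in the lung contrast held 4 higher and 5 lower. Of these 5, Il2 (0.0856 CPM in DN3 against 171 and 221 CPM) passed the filter through the lung libraries. Its direction was fixed too, so this count supports nothing either. The recombinase gene Rag1 and Dntt, the terminal transferase gene, led with 1260 and 1076 CPM in DN3; Dntt was 0.0294 CPM in ZsGreen-negative ILC2 and had 0 counts in ZsGreen-positive ILC2, which allows up to 0.103 CPM. Dtx1, a Notch pathway gene, was 117 CPM against 1.46 and 1.48 CPM. Rag1, Rag2, Ptcra and Dntt are also DN3 markers, and the list shares Ets1 with the Runx list. Within the lung 0 of 9 were called higher and 1 lower, beside 2.18% of all genes (the same with DESeq2 and limma voom; 1 higher and 3 lower at an unadjusted p under 0.05). Hes1, a transcriptional repressor downstream of Notch, fell from 155 ± 7.61 to 89.2 ± 10.1 CPM with ZsGreen (-0.80 ± 0.09, adjusted p = 2.30e-05), and stayed called once the structural score was in the fit (-0.82, adjusted p = 0.00804). Foxo1 (-0.30 ± 0.09, adjusted p = 0.0677) and Notch3 (1.15 ± 0.35, adjusted p = 0.0717) were not called.

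Other genes with the most similar profile were ranked by the root-mean-square difference of centred log2(CPM + 1) over the 11 libraries, among 9791 genes, where smaller is more alike. Nearest to Runx1 were Akap1 (0.0892) and Wdr43 (0.0930), nearest to Runx2 Gramd1b and Lrig3 (both 0.101), and nearest to Runx3 Nfkbie (0.0927) and Fnbp1 (0.0989). Cbfb was closest to Ociad1 (0.0560) and Atp6v1b2 (0.0570), and Ikzf1 to Stxbp5 (0.0533) and Ap2b1 (0.0565). Ikzf2 was closest to Appl1 (0.0698) and Ing3 (0.0776), Ikzf4 to Dzip1 (0.140) and Cdan1 (0.180), and Ikzf5 to Uqcc3 (0.0886) and Atg101 (0.0995). For Ikzf3 the nearest were Cwc25 (0.133) and Errfi1 (0.140); Cwc25 stood at 421, 273 and 29.5 CPM in ZsGreen-negative ILC2, ZsGreen-positive ILC2 and DN3. All these genes share the same libraries and depths, and the ranking carries no test.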

How the data were processed

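Bulk RNA-seq libraries of 5 ZsGreen-negative ILC2, 3 ZsGreen-positive ILC2 and 3 DN3 samples were analysed. The deposited table holds raw counts per gene from the authors. Per the labels' protocols, RNA was extracted with PicoPure and libraries made with a Watchmaker mRNA kit, and per the submitters' processing notes the build was GRCm39 and DESeq2 was used. Aligner, counter, annotation and strand setting: not given in the sources used here. Differences were tested with edgeR 4.0.16 (quasi-likelihood, robust, TMM scaling, filterByExpr at a minimum count of 10, Benjamini-Hochberg over all genes, threshold 0.05) in R 4.3.3. The lung contrast was fitted on 8 libraries with a batch term; the DN3 contrasts used all 11 libraries without it. Limma 3.58.1 and DESeq2 1.42.0 were alternatives. A self-test on simulated counts recovered known changes. Those changes were larger than the Ikzf3 and Runx2 differences in the lung, and no batch effect was simulated, so it does not bear on them. Exon lengths came from GENCODE M21 (GRCm38, lengths only) and promoters from RefSeq (GRCm38.p6), where 6 of 9 members matched. Pairs of replicate libraries differed by 1.77 to 15.3 in chi-square per degree of freedom, so none was counted as a duplicate. Intervals cover the spread between libraries. The limit given for 0 counts is 3 counts over a group and covers counting error only.

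Members and lists were chosen with earlier results of these data known. The genes named are all 9 members, up to 3 tested genes of smallest p per list and contrast, and the 2 nearest profiles per member (mean CPM of at least 5, unnamed models, ribosomal, mitochondrial and sex-linked transcripts such as Xist left out). The 5 gene lists are Runx cofactors, Ikaros chromatin partners, the cereblon ligase, and the Runx and Ikaros family targets.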

Additional observations from a re-analysis of the deposited data

Results flagged for a closer look

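In ZsGreen-negative ILC2, library 3 stood apart for Ikzf2 at 159 CPM, with the other 4 libraries at 120.4 to 130.04 CPM. Its gap to the nearest library was 0.752 of the group's range, above the 95% critical value of 0.71 for 5 libraries. All 9 members were checked this way in that group, and chance flags about 1 in 20 groups. Without that library Ikzf2 was still not called between the lung groups, and it remained called lower in DN3.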

How the results depend on the processing

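The settings tried were other scalings, filters and tests, leaving out each library, the batch and structural score terms, and, for lengths, raw counts and the longest coding transcript (the last chosen after seeing the data). The count of genes called in the lung, 623, became 1081 with no filter, 298 within the 2024 lung batch, 50 with the structural score as a term and 286 to 751 on leaving out single libraries: 286 without ZsGreen-negative 5, 321 without ZsGreen-positive 2 and 302 without ZsGreen-positive 3. Both counts in the DN3 contrasts stayed within 1.5 times. Replicate numbers did not pair the lung libraries: deviations of same-numbered libraries correlated at -0.138 to 0.0782, and 0 of 3 ZsGreen-positive libraries matched their own number best. The highest lung values joined unlike numbers. They were 0.196 for ZsGreen-negative 3 with ZsGreen-positive 2, and 0.165 for ZsGreen-negative 2 with ZsGreen-positive 1. Only libraries 1 to 3 of each group were compared, and a pairing other than by number was not tested. With the replicate number as a block in place of the batch term, the lung count was 233. Neither Ikzf3 (edgeR adjusted p = 0.0763) nor Runx2 (adjusted p = 0.213) was called in that fit. The block joined ZsGreen-negative 3 to ZsGreen-positive 3, which are of different lung batches, so it cannot show the effect of pairing alone. It changed no member's call in the DN3 contrasts. Lung differences near 0 changed sign: Runx3 under the replicate block (0.0075), Cbfb on leaving out single libraries (-0.094 without ZsGreen-positive 3 to 0.014 without ZsGreen-positive 2), and Ikzf5 with limma voom (0.039) and on leaving out single libraries (-0.43 to 0.024, the latter without ZsGreen-positive 2). Ikzf5 in DN3 minus ZsGreen-positive ILC2 ranged from -0.25 to 0.26, the latter without ZsGreen-positive 3. In the smaller lung batch, with 1 library a group and no test, Runx1 (-0.014) and Ikzf1 (-0.087) were below 0, and Cbfb (0.095) and Ikzf5 (0.49) above it, each opposite in sign to the reported value. The cause was not tested. Ikzf3 was called in 12 of 17 lung settings without the block (adjusted p 8.15e-08 to 0.272) and Runx2 in 13 of 17 (0.0100 to 0.656). Cbfb in DN3 minus ZsGreen-positive ILC2 was called in 4 of 13 settings (0.0184 to 0.330). Family shares depend on length by construction. With raw counts and with the longest coding transcript, Runx3 held 51.2% and 62.0% in ZsGreen-negative and 46.1% and 57.2% in ZsGreen-positive ILC2, and Runx1 85.9% and 81.4% in DN3. Ikzf1 held 52.9% and 48.5% in ZsGreen-negative ILC2, 61.8% and 58.5% in ZsGreen-positive ILC2, and 77.5% and 81.0% in DN3. Depth limits Ikzf4 and Ikzf5, at 16 to 197 counts per library.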
